A study of Mus musculus with 16 samples.

Results

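The time-of-day contrast in the hypothalamus of mice lacking acid-sensing ion channel 1a (ASIC1a) was described from 8 of the 16 RNA-seq libraries of the study, 4 prepared from ASIC1a-/- mice at ZT13 and 4 from ASIC1a-/- mice at ZT1. Zeitgeber time (ZT) counts hours from lights on, in a cycle with light and dark phases of 12 h each, so ZT1 lies 1 h into the light phase and ZT13 lies 1 h into the dark phase, when mice become active. The mice were males of the C57BL/6 strain aged 3 months, and ASIC1a was deleted throughout the body from conception, so no cell type or age is singled out by the deletion. The other 8 libraries came from wild-type (WT) mice at the same times, 4 at each, and are given here for comparison. Every library was prepared from the whole hypothalamus of a different mouse, and with 2 times neither a rhythm nor its peak can be derived. Of 55401 genes in the tables, 15668 exceeded 1 CPM (expected counts scaled to the size of each library) in 1 or more of the 8 libraries and were tested.

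The circadian clock is a transcriptional loop in which BMAL1 (encoded by Arntl) and CLOCK activate the Per and Cry genes through E-box sequences, and the PER and CRY proteins then repress that activation. The master clock sits in the suprachiasmatic nucleus of the hypothalamus, while the rest of the hypothalamus, its glia and its vessels follow the rhythm of light, feeding, body temperature and glucocorticoid hormone, which rises in nocturnal rodents toward the dark phase. ASIC1a is a sodium channel opened by extracellular protons, and immediate early genes such as Fos and Egr1 are transcribed within minutes of a stimulus to a cell.

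The promoters of some genes that changed hold recognition sequences known from these systems. Shown here are 7 of them, from clock, activity-responsive and glial genes described below. Genes and motifs were picked and only windows that hold the motif were kept, so each shows its motif by construction. The windows were read from RefSeq promoters (GRCm38.p6, 5′ to 3′ on the strand of the gene). In Ciart (chr3:95882252-95882374, minus strand), a clock repressor, capitals mark 3 E-boxes, the first 116 and the last 44 bases upstream of the RefSeq start. In Per1 (chr11:69098753-69098818, plus strand) capitals mark an E-box 166 bases upstream. In Per3 (chr4:151044786-151044900, minus strand) capitals mark 2 D-boxes, the site of DBP and related factors, 205 and 158 bases upstream. In Egr2 (chr10:67537767-67537836, plus strand) capitals mark a CArG box, bound by serum response factor, 72 bases upstream. In Btg2 (chr1:134079284-134079351, minus strand) and Arl4d (chr11:101665485-101665540, plus strand) capitals mark the cAMP response element (CRE), 166 and 26 bases upstream. In Fabp7 (chr10:57784722-57784787, plus strand) capitals mark the reverse complement of the half-site of REV-ERB and ROR receptors, 171 bases upstream. The Ciart and Per3 windows also lie within annotated transcripts of C920021L13Rik and Camta1, and those of Per1 and Egr2 within longer transcripts of the same gene.
Ciart: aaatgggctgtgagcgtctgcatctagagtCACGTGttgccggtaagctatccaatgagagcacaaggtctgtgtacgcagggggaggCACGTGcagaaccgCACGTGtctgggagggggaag
Per1: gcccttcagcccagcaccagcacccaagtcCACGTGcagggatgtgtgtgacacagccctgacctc
Per3: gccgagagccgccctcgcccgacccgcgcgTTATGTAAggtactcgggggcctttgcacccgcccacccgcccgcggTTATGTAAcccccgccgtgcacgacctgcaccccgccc
Egr2: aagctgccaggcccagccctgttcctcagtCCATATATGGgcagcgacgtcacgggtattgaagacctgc
Btg2: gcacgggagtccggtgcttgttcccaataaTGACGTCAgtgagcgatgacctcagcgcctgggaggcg
Arl4d: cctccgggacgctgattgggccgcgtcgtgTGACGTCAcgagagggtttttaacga
Fabp7: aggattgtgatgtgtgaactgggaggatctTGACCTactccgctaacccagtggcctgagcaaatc

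Across promoters of 250 bases before to 50 bases after a start, the motifs were found in many others. The E-box (CACGTG) was in 7.15% of all 32851 RefSeq promoters, in 9.45% of those of tested genes, in 10.6% of those of genes higher at ZT13 and in 9.46% of those of genes lower at ZT13. The CRE (TGACGTCA) was in 2.87% of promoters of tested genes, 3.67% of those of higher genes and 2.7% of those of lower genes. The D-box (TTATGTAA or TTACGTAA) was in 0.747%, 0.87% and 0.946%, the CArG box in 1.34%, 1.55% and 1.49%, and the REV-ERB and ROR half-site (AGGTCA) in 12.2%, 10.6% and 12.2% of the same sets. Both strands were searched, and motifs of different kinds may overlap. The heat-shock motif (GAANNTTC or TTCNNGAA) was in 11.6% of promoters of tested genes and in 13 of the 28 promoters of the heat-shock list described below. Of the 8 promoters of the clock repressor list, 3 held an E-box and 1 a D-box. Of the 30 promoters of the immediate early list, 5, from 2 genes, held a CArG box and 2 a CRE.

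Expected counts summed to 34888522 to 42326259 per ASIC1a-/- library (median 36117140) and 35058871 to 36029802 per WT library, and within groups libraries differed by more than counting error. The targeted gene, Asic1 (ENSMUSG00000023017, chromosome 15, 99670368 to 99701130 in GRCm38), was lower in the ASIC1a-/- libraries (65.0 to 71.9 CPM) than the WT means of 104 and 99.1 CPM, and its remaining transcripts were at 67.5 ± 2.32 CPM at ZT1 and 71.0 ± 0.81 CPM at ZT13 (SD, n = 4; adjusted p = 0.101). These values are for the whole gene and do not separate the Asic1a transcript from others of Asic1. By RT-qPCR the study found Asic1a mRNA to be absent in ASIC1a-/- mice. Markers of tissue next to the hypothalamus varied between ASIC1a-/- mice. Markers of the meninges summed to 80.6 to 522 CPM at ZT1, highest in replicate 4, and to 56.7 to 260.0 CPM at ZT13, highest in replicate 2. In WT libraries they summed to 60.6 to 93.1 CPM. Those of midbrain dopamine neurons summed to 435 to 767 CPM at ZT1, highest in replicates 2 and 4, and to 305 to 396 CPM at ZT13. The midbrain markers varied between WT mice too, at 264 to 521 CPM at ZT1 and 252 to 427 CPM at ZT13. The first principal component of the 8 libraries (31.8% of the variance) was led by ZT1 replicate 4, and the second (19.7%) placed 3 of the 4 ZT1 libraries above 0 and all 4 ZT13 libraries below 0. The 30 factors of hypothalamic nuclei, which mark the tissue itself, summed to 312 to 339 CPM at ZT1 and 333 to 348 CPM at ZT13. In whole tissue, fewer cells of a type and less RNA per cell cannot be told apart.

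**Figure D1:**
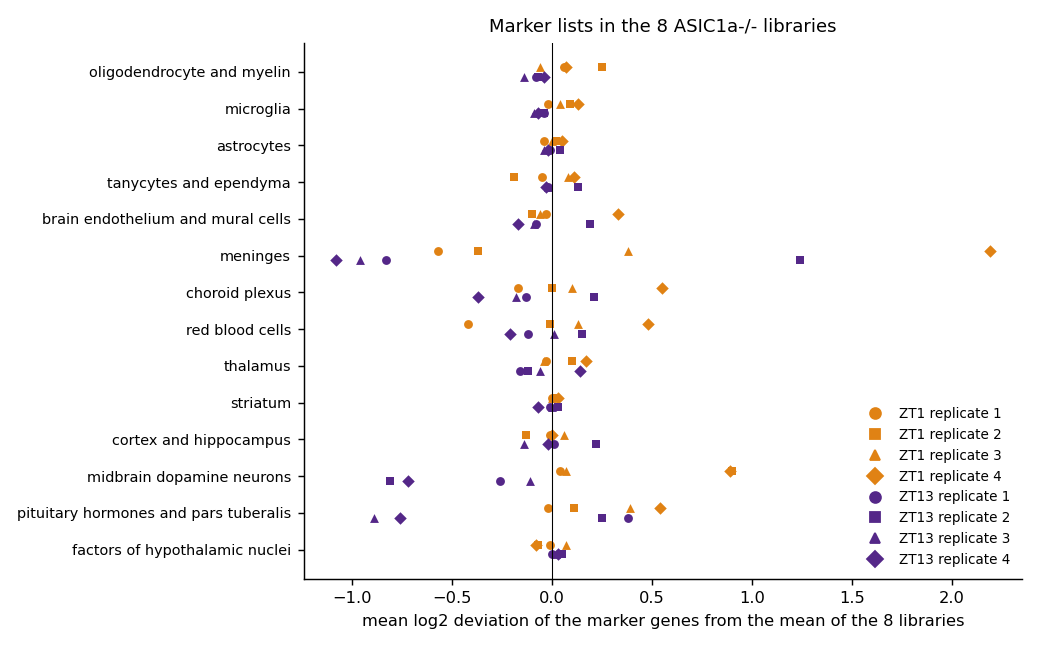
Mean deviation of the genes of each marker list (log2 CPM, horizontal axis) from the mean of the 8 ASIC1a-/- libraries, with 1 symbol per library (orange, ZT1; purple, ZT13). Meningeal markers stand highest in ZT1 replicate 4 and ZT13 replicate 2, and midbrain dopamine markers in ZT1 replicates 2 and 4.

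At ZT13, 1040 genes were higher (6.64% of those tested) and 750 were lower (4.79%) than at ZT1 in ASIC1a-/- hypothalamus by edgeR's quasi-likelihood test, at an adjusted p under 0.05, so that 11.4% of the genes were called and 58.1% of the calls were higher. Most changes were small. The median size of a called change was 0.195 on the log2 scale, or 1.145-fold, and 44 genes changed by more than 2-fold, 21 of them higher and 23 lower. In 1544 of the 1790 called genes the 4 ZT13 libraries did not overlap the 4 ZT1 libraries, while 15.8% of all genes tested were without overlap. The genes with the smallest p that were higher were Egr1, Plin4, Tsc22d3, Fos, Rbm3, Sfrp5, Etnppl, Ddit4, Gm19439 and Nr4a1, and those that were lower were Fabp7, S100a16, Mmp14, Rftn2, Emp2, Id2, Lman2l, Tspan9, Calr and Hnrnpc, and each of these 20 was called in every alternative analysis.

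The split between higher and lower calls depended on scaling. With library totals alone in place of TMM factors 69.8% of the calls were higher, and on log2(TPM + 1) and log2(TPM + 0.1) scales 78.6% and 78.9% were higher, although each of these moved the median of all genes by less than 0.1. Without ZT13 replicate 1 the count of called genes was 1157 and that of lower genes 441, and without ZT1 replicate 2 the count of lower genes was 493. Without ZT1 replicates 2 and 4, which were high in midbrain markers, 578 genes were higher and 278 lower, and without ZT1 replicate 4 and ZT13 replicate 2, which were high in meningeal markers, 652 were higher and 441 lower.

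**Figure D2:**
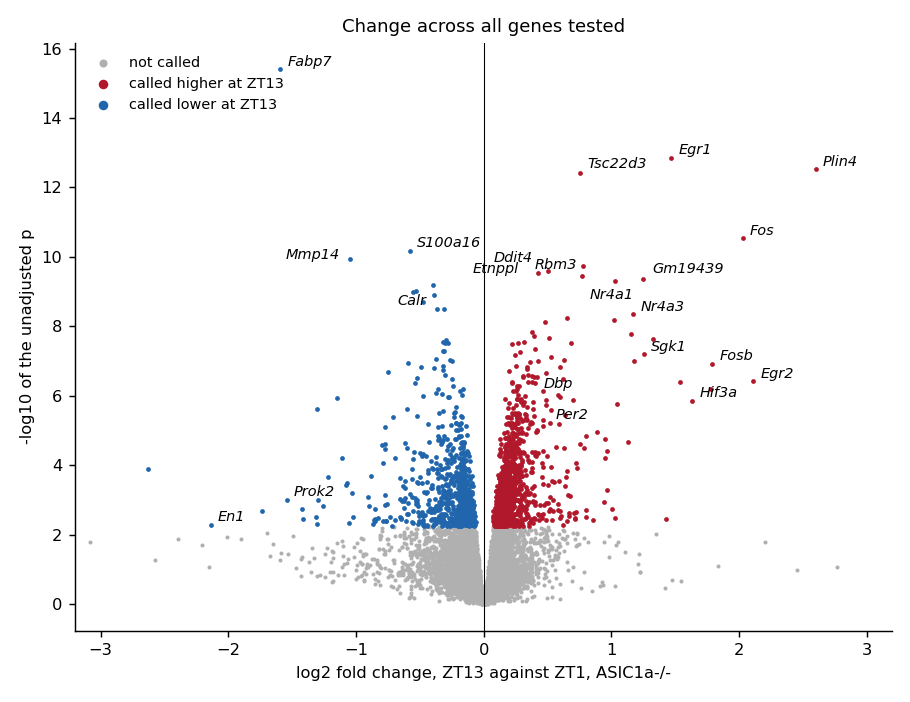
Log2 fold change of ZT13 against ZT1 in ASIC1a-/- mice (horizontal axis) and -log10 of the unadjusted p (vertical axis) for each gene tested, with called genes in red (higher) and blue (lower). Fabp7 has the smallest p, and 11 genes lie beyond the horizontal limits.

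The same contrast in WT mice called 2087 genes (13.3%). These contrasts of the 2 genotypes share no library, but came from the same fit, with the same estimate of spread for each gene. In both contrasts 1083 genes were called, with the same sign in 1082. These genes were 60.5% of the ASIC1a-/- calls and 51.9% of the WT calls. A gene with a small estimated spread is favoured in both contrasts, so this overlap of calls is no independent evidence. Of the ASIC1a-/- calls 97.9% had the same sign in WT mice, against 74.4% of all genes tested. The difference between the time contrasts of the genotypes, tested as an interaction, was called for 3 genes (0.0191%), Egr1, Nr4a1 and Ddit4, and 611 genes had an unadjusted p under 0.05. Of the 707 genes called in ASIC1a-/- mice and not in WT mice, 2 were called in the interaction. On simulated counts the interaction test recovered 18% and 74% of genes with a difference of 0.25 and 0.5 (log2). A gene without a call in the interaction may therefore still differ between genotypes.

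Clock genes of the repressing arm were higher at ZT13. Of 8 clock repressors, 6 were higher and none was lower, against 6.64% of all genes higher. The median log2 fold change (log2FC) was 0.25, against -0.01 over all genes tested. Per2 (ENSMUSG00000055866, chromosome 1, 91415982 to 91459324), a period protein gene, was at 28.1, 27.8, 28.7 and 28.1 CPM in the ZT1 libraries and at 39.5, 40.2, 40.1 and 38.4 CPM in the ZT13 libraries. The libraries of each time lay close together and the groups were far apart (log2FC = 0.49, SE = 0.0705, adjusted p = 2.4e-04), against a log2FC of 0.60 in WT mice. Per1, which is also induced by glucocorticoid and by cAMP signalling, was at 44.3, 36.2, 46.0 and 43.7 CPM at ZT1 and at 56.9, 60.7, 59.9 and 57.2 CPM at ZT13 (log2FC = 0.46, SE = 0.0744, adjusted p = 6.14e-04). Its groups did not overlap, and ZT1 replicate 2 was the lowest. Per3 had a log2FC of 0.32 (SE = 0.0668, adjusted p = 0.00452). Nr1d2, which encodes REV-ERBβ, a repressor of Arntl, was at 131 ± 6.66 CPM at ZT1 and 153 ± 1.90 CPM at ZT13 (log2FC = 0.23, SE = 0.0307, adjusted p = 1.26e-04). Of the remaining repressors, Ciart (0.26, adjusted p = 0.042) and Cry2 (0.11, adjusted p = 0.036) were called, while Cry1 (0.18, adjusted p = 0.054) and Nr1d1 (0.11, adjusted p = 0.153), the gene of REV-ERBα, were not.

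The calls of Ciart and Cry2 lay near the threshold and were lost in most analyses that left out 1 library, while the log2FC stayed at 0.22 to 0.32 for Ciart and 0.09 to 0.13 for Cry2. Ciart was not called without ZT1 replicate 2, 3 or 4 or ZT13 replicate 1, 2 or 4 (adjusted p up to 0.103), and Cry2 was not called without ZT1 replicate 2, 3 or 4 or ZT13 replicate 1 or 4 (up to 0.124). Cry1 was called without ZT1 replicate 3 (adjusted p = 0.0297). Without the ZT1 replicates high in midbrain markers, 3 repressors were higher, Per3 was not called (adjusted p = 0.0604) and the median was 0.24.

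Arntl, the activator gene, moved in the opposite direction to the Per genes. It was at 33.0, 35.3, 33.9 and 34.4 CPM at ZT1 and at 28.6, 29.4, 29.71 and 30.04 CPM at ZT13, without overlap (log2FC = -0.21, SE = 0.0477, adjusted p = 0.00761; 0.0867 without ZT1 replicates 2 and 4), against a log2FC of -0.33 in WT mice. Clock, its partner, had a log2FC of 0.00 (adjusted p = 0.975). Of the 9 activators and related ROR and DEC factors, 2 were higher and 1 was lower (33.3% called, against 11.4% of all genes tested). The sign of their median of -0.01 turned with the scaling. The 2 higher members, Bhlhe40 (0.14, adjusted p = 0.0499) and Bhlhe41 (0.18, adjusted p = 0.0201), encode the repressors DEC1 and DEC2. Leaving out any 1 library but ZT1 replicate 3 ended the call of Bhlhe40 (adjusted p up to 0.127), and leaving out ZT1 replicate 1 or 3 or ZT13 replicate 2 ended that of Bhlhe41 (up to 0.0645).

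Genes of clock output changed as well. Dbp, a PAR bZIP transcription factor driven by CLOCK and BMAL1, was at 26.0, 25.2, 27.3 and 26.5 CPM at ZT1 and at 35, 34, 34.2 and 35.5 CPM at ZT13, without overlap (log2FC = 0.40, SE = 0.0518, adjusted p = 8.34e-05). The other 3 members of its list were not called. Usp2, which encodes a deubiquitinase of clock proteins, was at 17.9 ± 0.675 CPM at ZT1 and 25.5 ± 1.85 CPM at ZT13 (log2FC = 0.51, SE = 0.0535, adjusted p = 1.2e-05). Among 15 peptides, receptors and factors of the suprachiasmatic nucleus, Rasd1 and Lhx1 were higher and Prok2 was lower (20.0% called, against 11.4% of all genes). Rasd1, which encodes a small G protein that shapes the response of the clock to light, was at 8.18 ± 0.824 CPM at ZT1 and 12.8 ± 0.697 CPM at ZT13 (log2FC = 0.65, adjusted p = 0.0047). Prok2, a secreted output peptide of the suprachiasmatic nucleus, was at 1.01, 0.813, 0.89 and 0.897 CPM at ZT1 and at 0.299, 0.48, 0.236 and 0.222 CPM at ZT13. These groups did not overlap, and the log2FC was -1.54 (SE 0.393, adjusted p = 0.0164, and 0.0521 without ZT13 replicate 3). Prok2 passed the 1 CPM minimum only through ZT1 replicate 1, so it was tested only through the group where it was higher. The call of Lhx1 (0.24, adjusted p = 0.0379) was lost without ZT1 replicate 1, 2 or 4 or ZT13 replicate 1, 3 or 4 (up to 0.117). The neuropeptides Vip and Avp had log2FCs of 0.25 and -0.28 and were not called.

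Genes that glucocorticoid hormone is known to induce were higher at ZT13. Of 21 such genes 15 were higher and none was lower, against 6.64% of all genes higher, and their median log2FC was 0.50. In WT mice 12 were called, with a median of 0.34. An unadjusted interaction p under 0.05 was reached by 7 of the 21, against 611 of all 15668 genes tested. The list was chosen with earlier results of these data known, and it holds Sgk1, which the study names from these same libraries. These counts are therefore no independent evidence. Leaving out single libraries left 15 or 16 higher, and without the ZT1 replicates high in midbrain markers 15 were higher. Plin4 (ENSMUSG00000002831, chromosome 17, 56100591 to 56109803), which encodes a lipid droplet protein, was at 3.298, 3.111, 3.92 and 4.85 CPM at ZT1 and at 23.6, 28.9, 20.8 and 18.9 CPM at ZT13. Every ZT13 library lay several times above every ZT1 library (log2FC = 2.60, SE = 0.137, adjusted p = 1.54e-09), against a log2FC of 3.01 in WT mice. Tsc22d3, which encodes the mediator of glucocorticoid action GILZ, was at 63.2, 67.0, 70.3 and 68.7 CPM at ZT1 and at 112, 112, 113 and 119 CPM at ZT13 (log2FC = 0.76, SE = 0.0406, adjusted p = 1.54e-09). Its 4 ZT13 libraries were well clear of the ZT1 libraries.

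Further members of the list had smaller changes than Plin4. Sgk1, which encodes a kinase that regulates ion transport, was at 20.6, 24.1, 23.8 and 27.8 CPM at ZT1 and at 53.2, 40.5, 74.3 and 61.3 CPM at ZT13 (log2FC = 1.25, SE = 0.142, adjusted p = 2.41e-05). The ZT13 libraries ranged widely but did not overlap those of ZT1, and in WT mice its log2FC was 0.35 (adjusted p = 0.127; interaction adjusted p = 0.39). Zbtb16, which encodes the zinc finger protein PLZF, was at 7.69 ± 1.44 CPM at ZT1 and 17.4 ± 4.10 CPM at ZT13 (log2FC = 1.17, SE = 0.137, adjusted p = 3.14e-05) against 1.74 in WT mice. Hif3a, which encodes a hypoxia-inducible factor subunit, was at 2.41 ± 0.984 and 7.48 ± 1.33 CPM (log2FC = 1.63, SE = 0.230, adjusted p = 1.92e-04). Mertk, a phagocytic receptor gene (0.70), Map3k6 (0.78), Nfkbia, the inhibitor of NF-κB (0.59), and Fkbp5, a cochaperone of the glucocorticoid receptor (0.38), were also higher in both genotypes.

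Ddit4 (ENSMUSG00000020108, chromosome 10, 59949669 to 59951834), a gene whose product restrains mTOR complex 1, rose in ASIC1a-/- mice and differed between genotypes in its change with time. It was at 18.4, 19.4, 18.8 and 19.0 CPM at ZT1 and at 26.3, 26.9, 26.7 and 27.3 CPM at ZT13 (log2FC = 0.50, SE = 0.0400, adjusted p = 4.55e-07). The libraries of each time lay close together and the groups were well apart. WT mice were at 19.7 ± 0.929 CPM at ZT1 and 20.4 ± 0.999 CPM at ZT13 (log2FC = 0.05, adjusted p = 0.443), and the difference between the contrasts was 0.45 (SE 0.0572, interaction adjusted p = 0.00167). Of the other 30 genes of the Akt and mTOR pathway 5 were higher and 3 lower, among them Tsc1 (0.20), Irs1 (0.20) and Foxo3 (0.15), all higher, and Akt2 (-0.18), lower, and each of these 4 was called with the same sign in WT mice. Of the whole list, Ddit4 included, 29.0% were called, against 11.4% of all genes tested.

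Many immediate early transcription factors were higher at ZT13 in ASIC1a-/- mice. Of 25 tested, 12 were higher and none was lower, against 6.64% of all genes higher. The median log2FC was 0.44, while in WT mice 5 were called and the median was 0.06. The study names many of these factors, such as Fos, Egr1 and Nr4a1, from these same libraries. The counts and their difference from WT mice are therefore no independent evidence. Leaving out single libraries left 10 to 12 higher, and 10 were higher without the ZT1 replicates high in midbrain markers. Fos (ENSMUSG00000021250, chromosome 12, 85473890 to 85477273) was at 6.26, 8.83, 6.59 and 7.01 CPM at ZT1 and at 31.2, 29.6, 27.0 and 29.4 CPM at ZT13. Every ZT13 library was more than 3 times as high as any ZT1 library, and the log2FC was 2.03 (SE 0.141, adjusted p = 9.18e-08). In WT mice Fos was at 6.53 ± 0.566 and 13.1 ± 3.45 CPM (log2FC = 1.00, adjusted p = 2.99e-04), and edgeR did not call the interaction (adjusted p = 0.199), which DESeq2 and edgeR with no filter on low counts did.

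Egr1 (ENSMUSG00000038418, chromosome 18, 34859823 to 34864984), a zinc finger factor of the early growth response family, was at 24.2, 22.5, 24.3 and 20.9 CPM at ZT1 and at 71.1, 56.9, 61.8 and 64.1 CPM at ZT13. The log2FC was 1.47 (SE 0.0739, adjusted p = 1.08e-09) without overlap. In WT mice Egr1 was at 20.3 ± 1.67 and 26.4 ± 2.40 CPM (log2FC = 0.38, adjusted p = 0.00371), and the difference between the contrasts was 1.09 (SE 0.107, interaction adjusted p = 1.3e-04). Nr4a1 (ENSMUSG00000023034, chromosome 15, 101254269 to 101274795), an orphan nuclear receptor gene, was at 11.4, 10.3, 12.1 and 10.2 CPM at ZT1 and at 23.2, 24.9, 21.0 and 20.7 CPM at ZT13 (log2FC = 1.03, SE = 0.0851, adjusted p = 6.07e-07). The WT means were 10.01 ± 0.584 and 10.1 ± 1.42 CPM, and the difference between the contrasts was 1.02 (SE 0.124, interaction adjusted p = 0.00141). At ZT1 the levels of Egr1 and Nr4a1 in ASIC1a-/- mice were near those of WT mice, and at ZT13 they stood above them. The study names both genes from these same libraries, so their interactions are no independent evidence.

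The interaction of Egr1 and Ddit4 was called in all 28 alternatives and that of Nr4a1 in 26, with the log2(TPM + 1) and log2(TPM + 0.1) scales as the exceptions (adjusted p up to 0.0841). When 1 library was left out, 3 genes were called in 11 of 16 analyses and more in 5. The count was 7 without WT ZT13 replicate 4, with Btg2, Egr2 and Fos among them, 6 without ASIC1a-/- ZT13 replicate 2, with Arl4d and Sgk1 among them, 5 without WT ZT1 replicate 2, and 4 without ASIC1a-/- ZT1 replicate 2 or WT ZT13 replicate 3. DESeq2 called 13 and edgeR with no filter on low counts 17, and Fos, Fosb, Egr2, Btg2 and Arl4d were in both sets.

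Egr2 was at 0.335, 0.336, 0.584 and 0.392 CPM at ZT1 and at 2.04, 1.55, 1.98 and 1.58 CPM at ZT13 (log2FC = 2.11, SE = 0.271, adjusted p = 8.1e-05), against -0.27 in WT mice (interaction adjusted p = 0.0894). Egr2 passed the 1 CPM minimum only through the ZT13 libraries, the group where it was higher. Fosb was at 1.57 ± 0.432 CPM at ZT1 and 5.45 ± 1.15 CPM at ZT13 (log2FC = 1.79, SE = 0.212, adjusted p = 3.58e-05). Junb (1.16) and Fosl2 (0.64), partners of FOS in the AP-1 complex, and Nr4a3 (1.17) were higher in WT mice too, where their log2FCs were 0.58, 0.43 and 0.72. Nr4a3 was at 6.05 to 6.65 CPM at ZT1 and 14.4 to 14.6 CPM at ZT13, so that its 8 libraries fell into 2 narrow bands. Egr3 (0.73) and Btg2 (0.68), an antiproliferative factor, were higher in ASIC1a-/- mice without a call in the interaction by edgeR at the 1 CPM minimum. Npas4, Nr4a2 and Jun were not called, with log2FCs of -0.11, 0.00 and 0.16 (chosen after their values were seen).

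Of 22 activity-dependent effectors, 7 were higher and 1 was lower (36.4% called, against 11.4% of all genes tested). The lower one was Vgf, described below. The median of 0.07 was 0.03 without ZT13 replicate 1 and 0.045 without ZT1 replicate 1. Arl4d, which encodes a small GTPase, was at 2.79, 3.56, 2.92 and 4.04 CPM at ZT1 and at 7.56, 4.52, 7.82 and 7.57 CPM at ZT13 (log2FC = 1.05, SE = 0.150, adjusted p = 2.31e-04), against 0.05 in WT mice (interaction adjusted p = 0.305). The groups did not overlap, and ZT13 replicate 2 lay below the other ZT13 libraries. Sik1, a salt-inducible kinase gene that restrains CREB signalling, was at 18.6 ± 1.56 and 27.8 ± 0.799 CPM (log2FC = 0.58, adjusted p = 1.56e-04). Arc and Bdnf, which respond to synaptic activity, had log2FCs of 0.05 and 0.08 and were not called. Of the 17 tested genes that the study names from these libraries, 12 were higher, which is no independent evidence since the study chose them on the same samples. Among them 1700016P03Rik was at 0.503 ± 0.151 CPM at ZT1 and 1.73 ± 0.405 CPM at ZT13 (log2FC = 1.78, adjusted p = 1.16e-04). It too passed the 1 CPM minimum only through the ZT13 libraries.

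**Figure D3:**
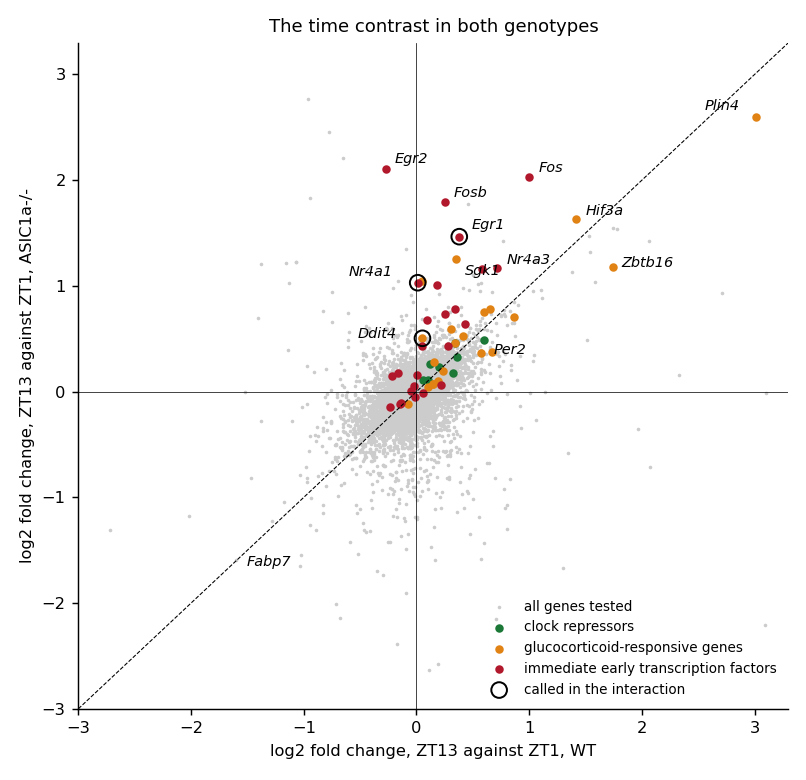
Log2 fold change of ZT13 against ZT1 in WT mice (horizontal axis) and in ASIC1a-/- mice (vertical axis) for each gene tested, with 3 gene lists in colour and the genes called in the interaction circled. Clock repressors lie near the dashed line of equal change, and glucocorticoid-responsive genes lie on both sides of it. Fos, Egr1, Egr2, Fosb and Nr4a1 lie above it, and 17 genes lie beyond the limits.

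Fabp7 (ENSMUSG00000019874, chromosome 10, 57784881 to 57788450), which encodes the brain fatty acid binding protein of astrocytes and neural progenitors, was at 40.9, 47.6, 45.7 and 43.6 CPM at ZT1 and at 14.3, 14.9, 14.6 and 15 CPM at ZT13. It had the smallest p of the lower genes. Its ZT13 libraries lay within 1 CPM of each other and far below those of ZT1 (log2FC = -1.60, SE = 0.0574, adjusted p = 6.27e-12). In WT mice the log2FC was -1.61, and the difference between the contrasts was 0.01 (SE 0.0813). Mmp14, a membrane matrix metalloproteinase gene, was at 31.9 ± 3.60 CPM at ZT1 and 15.5 ± 1.1 CPM at ZT13 (log2FC = -1.04, SE = 0.0788, adjusted p = 2.6e-07). S100a16, which encodes a calcium-binding protein, was at 40.0 ± 2.02 and 26.8 ± 0.78 CPM (log2FC = -0.58, SE = 0.0421, adjusted p = 1.74e-07). Id2, an inhibitor of basic helix-loop-helix factors (-0.53), Emp2 (-0.55), Tspan9 (-0.48) and Aqp9, a water and glycerol channel gene (-1.15), were lower as well, without overlap of the groups.

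Of 22 oligodendrocyte and myelin genes, 9 were lower and none was higher, with a median log2FC of -0.13 and 4.79% of all genes lower. The lineage factor gene Olig2 was at 33.1, 41.8, 34.7 and 34.1 CPM at ZT1 and at 22.8, 25.9, 25.1 and 25.0 CPM at ZT13 (log2FC = -0.54, SE = 0.0698, adjusted p = 8.37e-05). Opalin, a myelin membrane protein gene, was at 34.6, 33.1, 25.3 and 29.6 CPM at ZT1 and at 20.9, 20.2, 21.5 and 22.7 CPM at ZT13 (log2FC = -0.52, SE = 0.0796, adjusted p = 4.18e-04). Neither gene overlapped between groups. Ugt8a, the enzyme of galactosylceramide synthesis (-0.41), and Olig1 (-0.32) were lower too. Mbp, the gene of myelin basic protein, was not called, with a log2FC of -0.04 (chosen after its values were seen). The summed level of the list was 6383 to 8429 CPM at ZT1, highest in replicate 2, and 6469 to 7157 CPM at ZT13. Leaving out single libraries left 6 to 9 lower, and 9 were called in WT mice. The median was -0.06 without ZT1 replicate 2, and without ZT1 replicates 2 and 4, which were high in midbrain markers, 6 were lower and the median was -0.04.

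The shares called among microglial and astrocyte markers were near the 11.4% of all genes tested. Of 15 microglial markers 2 were lower (13.3%), Cx3cr1, the fractalkine receptor gene, at -0.30 and Fcrls at -0.36, and every member was below 0. Of 14 astrocyte markers 2 were called (14.3%), of which Fgfr3, a growth factor receptor gene, was higher (0.26) and Gja1, the gene of connexin 43, was lower (-0.18). Outside that list, Etnppl, which encodes an astrocytic phospholyase, rose from 97.5 ± 2.86 to 131 ± 4.30 CPM (log2FC = 0.42, SE = 0.0340, adjusted p = 4.58e-07), and Glul, the glutamine synthetase gene of astrocytes, had a log2FC of 0.18 (adjusted p = 5.8e-04). Dio2, the thyroid hormone activating deiodinase of astrocytes and tanycytes, was at 13.0 ± 2.16 and 19.6 ± 1.83 CPM (log2FC = 0.59, adjusted p = 5.82e-04). Of 14 genes of the thyroid axis 3 were higher (21.4%, against 6.64% of all genes), namely Dio2, Klf9 (0.28) and Hr, a nuclear corepressor gene (0.62). The peptide gene Trh was not called (-0.13). Klf9 is also in the glucocorticoid list and Dio2 in the tanycyte list.

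**Figure D4:**
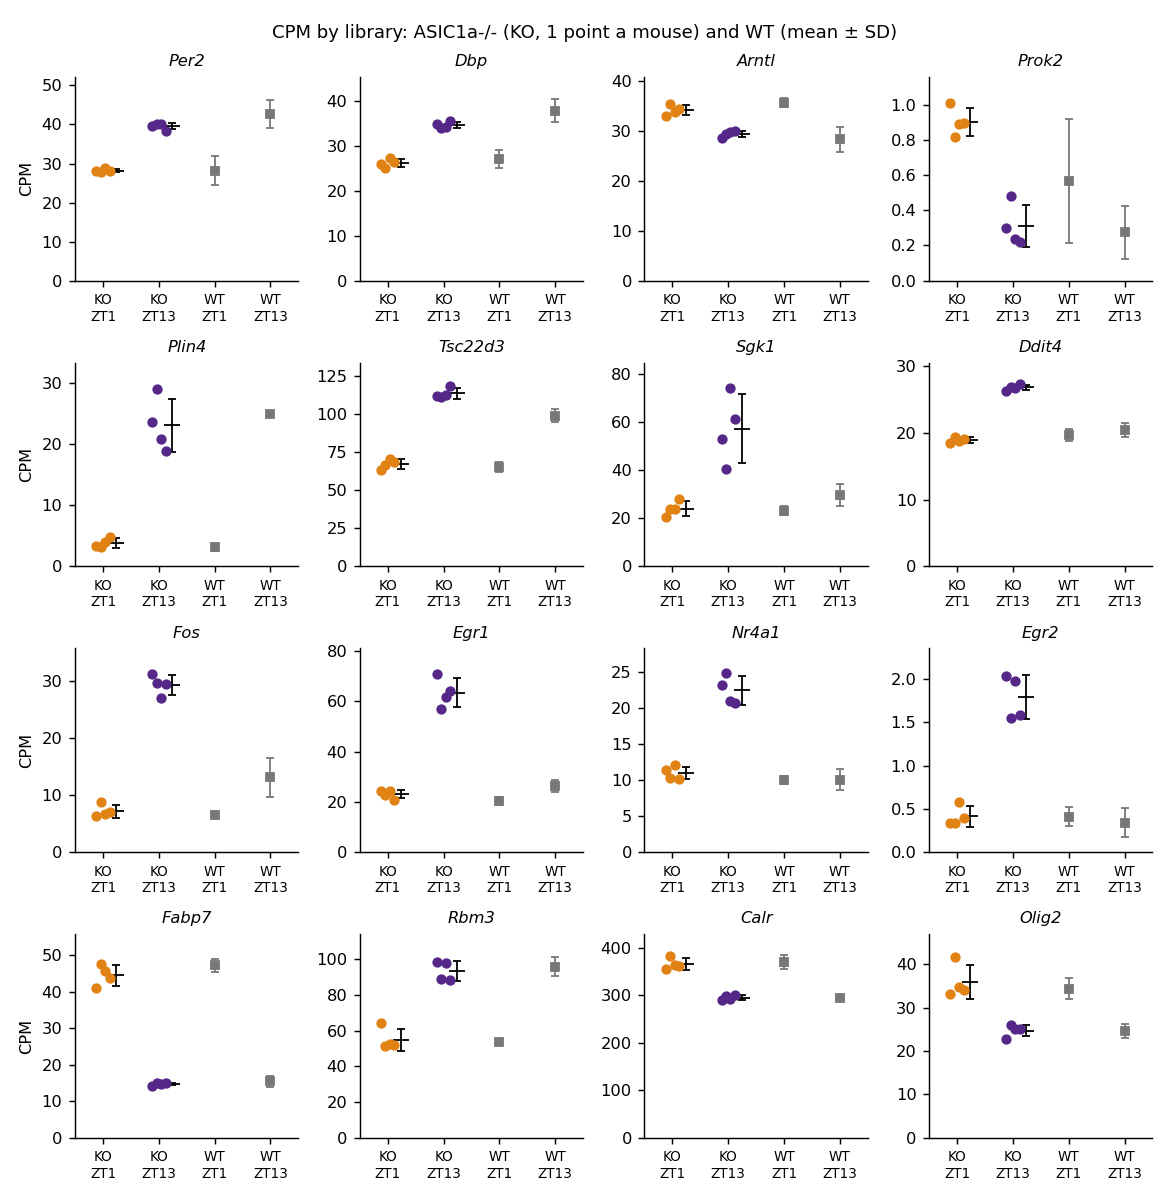
CPM of 16 genes in each ASIC1a-/- library (points; orange, ZT1; purple, ZT13) with the group mean and SD (black), and the WT means with SD (grey squares), on axes that start at 0. The ASIC1a-/- groups do not overlap for any gene shown, while Ddit4, Nr4a1, Egr2 and Sgk1 were among those not called in WT mice.

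Protein folding genes of the endoplasmic reticulum and of the cytosol held more lower than higher calls at ZT13. Of 21 endoplasmic reticulum chaperones and stress genes, 10 were lower and 2 higher, with a median of -0.12. Of all genes tested 4.79% were lower and 6.64% higher. Calr, the gene of calreticulin, was at 355, 382, 364 and 362 CPM at ZT1 and at 289, 299, 292 and 300 CPM at ZT13, without overlap (log2FC = -0.31, SE = 0.0287, adjusted p = 2.56e-06). Hsp90b1, which encodes GRP94, was at 600 ± 19.3 and 505 ± 7.77 CPM (log2FC = -0.25, adjusted p = 7.04e-05), and Pdia6, a disulfide isomerase gene, had a log2FC of -0.20 (adjusted p = 5.97e-04). The 2 higher members, Atf4 (0.13) and Herpud1 (0.14), encode a stress transcription factor and a degradation factor rather than chaperones. The call of Herpud1 was lost without ZT1 replicate 4 or ZT13 replicate 1, 2 or 4 (adjusted p up to 0.0595). The count of lower members was 5 without ZT1 replicate 2, 6 without ZT13 replicate 1, 6 without the libraries high in meningeal markers and 4 without the ZT1 replicates high in midbrain markers.

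Of 26 heat-shock proteins and cochaperones, 10 were lower and 2 higher (46.2% called, against 11.4% of all genes tested), with a median of -0.12. Hspa8, the constitutive HSC70 gene, was at 2702 ± 125 CPM at ZT1 and 2410.1 ± 78.6 CPM at ZT13 (log2FC = -0.16, SE = 0.0299, adjusted p = 0.00182). Stip1, a cochaperone between HSP70 and HSP90, was at 282, 320, 300 and 287 CPM at ZT1 and at 240, 241, 243 and 261 CPM at ZT13 (log2FC = -0.27, SE = 0.0374, adjusted p = 1.67e-04). The groups were apart, with ZT13 replicate 4 the highest of its group. Hsph1 (-0.24) and Hsp90aa1 (-0.18) were lower in both genotypes. The higher members were Dnajb5 (0.27, adjusted p = 7.23e-04) and Dnajb1 (0.29, adjusted p = 0.0282), both HSP40 genes, and Dnajb1 lost its call without ZT1 replicate 1, 3 or 4 or ZT13 replicate 1, 2 or 4 (adjusted p up to 0.078). Without the ZT1 replicates high in midbrain markers 5 members were lower and 2 higher.

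Both cold-inducible RNA-binding protein genes were higher. Rbm3 (ENSMUSG00000031167, chromosome X, 8138975 to 8145880) was at 64.3, 51.2, 52.3 and 52.2 CPM at ZT1 and at 98.7, 89.2, 98.1 and 88.4 CPM at ZT13, without overlap (log2FC = 0.77, SE = 0.0621, adjusted p = 5.15e-07), against a log2FC of 0.83 in WT mice. Cirbp was at 59.9 ± 4.09 and 70.4 ± 4.81 CPM (log2FC = 0.24, adjusted p = 0.012), and was not called without the ZT1 replicates high in midbrain markers. Of 30 splicing factors and RNA-binding proteins 8 were higher (26.7%, against 6.64% of all genes) and none was lower. Among the higher were the splicing kinase gene Clk1 (0.46), Tra2b (0.17) and Hnrnpu (0.15). The count was 5 without ZT1 replicate 2 or without ZT13 replicate 2, 4 without the libraries high in meningeal markers, and 1 without the ZT1 replicates high in midbrain markers, and 8 were called in WT mice. Hnrnpc, a ribonucleoprotein gene outside that list, was lower (log2FC = -0.37, adjusted p = 2.56e-06).

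Endothelial and mural genes moved in both directions. Of 19, 3 were higher and 3 lower (31.6% called, against 11.4% of all genes tested), and 10 were called in WT mice. Their median was -0.10, but it was 0.00 without ZT1 replicate 4, -0.16 without ZT13 replicate 2 and -0.06 without ZT13 replicate 4. The higher members serve transport or mark the surface of brain endothelium. Ly6c1 was at 14.2 ± 0.494 CPM at ZT1 and 19.9 ± 1.02 CPM at ZT13 (log2FC = 0.48, SE = 0.0596, adjusted p = 5.26e-05), Slc2a1, the glucose transporter of the blood-brain barrier, had 0.31 (SE 0.0334, adjusted p = 1.34e-05), and Slco1a4, an organic anion transporter, had 0.38. The lower members were Kdr, the VEGF receptor 2 gene, at 17.9 ± 3.40 and 12.2 ± 1.30 CPM (log2FC = -0.55, SE = 0.107, adjusted p = 0.00281), Cldn5, a tight junction gene (-0.37), and Kcnj8, a potassium channel gene of pericytes (-0.56). ZT1 replicate 4, which stood highest in meningeal markers, was the highest library for Kdr, Cldn5 and Kcnj8. Without ZT1 replicate 4 and ZT13 replicate 2, Kdr kept its call and Kcnj8 lost it, and without ZT1 replicates 2 and 4 there was 1 lower member. The part of neighbouring tissue in these values was not tested.

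Midbrain dopamine genes were lower at ZT13, and the summed level of the list was highest in ZT1 replicates 2 and 4 (767 and 764 CPM). ZT1 replicates 1 and 3, at 435 and 455 CPM, also lay above the 305 to 396 CPM of the ZT13 libraries. Of 10 genes tested 8 were lower, against 4.79% of all genes lower, with a median of -0.73. Th, the gene of tyrosine hydroxylase, which makes the dopamine precursor and which hypothalamic neurons also express, was at 63.1, 102, 56.2 and 104 CPM at ZT1 and at 46.8, 40.3, 50.2 and 43.5 CPM at ZT13 (log2FC = -0.85, adjusted p = 0.0241). En1, a factor of midbrain and not of hypothalamic development, was at 1.34, 4.09, 1.25 and 3.53 CPM at ZT1 and at 0.734, 0.17, 1.13 and 0.222 CPM at ZT13 (log2FC = -2.14, SE = 0.671, adjusted p = 0.047). Both genes were highest in ZT1 replicates 2 and 4, and neither was called without ZT1 replicate 2, ZT1 replicate 4, ZT13 replicate 1 or ZT13 replicate 2, nor En1 without ZT13 replicate 4. The count of lower members was 0 without ZT1 replicate 2, 0 without ZT1 replicate 4, 0 without ZT13 replicate 2, 4 without ZT13 replicate 1 and 3 without ZT13 replicate 4, and 0 without ZT1 replicates 2 and 4 together, where the median was -0.32. In WT mice none of the 10 was called by edgeR, and 1 had an unadjusted p under 0.05. The nicotinic receptor subunit genes Chrna6 (-1.42) and Chrnb3 (-1.31) and the transporter gene Slc10a4 (-1.32), all known from midbrain dopamine neurons, were among the 15 lowest genes of the comparison and were likewise highest in ZT1 replicates 2 and 4. None of these 3 was called without ZT1 replicate 2, ZT1 replicate 4, ZT13 replicate 2 or ZT13 replicate 4 (adjusted p up to 0.121), and Chrnb3 also not without ZT13 replicate 1 or 3.

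Meningeal genes had a median log2FC of -0.98 over 13 genes, the most negative of the 46 lists, and none was called by edgeR, DESeq2 or limma-voom, while 4 had an unadjusted p under 0.05. Their median ran from -2.14 without ZT13 replicate 2, where 8 were called lower, to 0.16 without ZT1 replicate 4, and without both libraries it was -1.04 with 5 called lower. The pituitary hormone genes Prl (-2.20, adjusted p = 0.109) and Gh (-1.43, adjusted p = 0.188) were not called in ASIC1a-/- mice, in which the 8 libraries spanned 0.0236 to 2.38 CPM for Prl and 0.306 to 11.5 CPM for Gh. In WT mice both were higher at ZT13, by 3.09 and 3.65 on the log2 scale (adjusted p = 0.0106 and 0.00299), and edgeR did not call the interaction for either (adjusted p = 0.285 and 0.199). The interaction of Gh was called by DESeq2, with no filter on low counts and with a replicate block over 16 libraries, and that of Prl with no filter.

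None of 16 arcuate feeding peptides and receptors was called by edgeR, 4 had an unadjusted p under 0.05, and DESeq2 and limma-voom each called 1. Agrp and Npy, which promote feeding, had log2FCs of 0.40 (adjusted p = 0.0828) and 0.21 (adjusted p = 0.168), and Pomc, the precursor of an appetite-suppressing peptide, had -0.19 (adjusted p = 0.33). Without ZT1 replicate 1 there were 2 calls in this list, of which Npy was one (adjusted p = 0.0174). Of 21 neurosecretory peptide genes 2 were lower, Th and Vgf (9.52% called, against 11.4% of all genes tested). Vgf, a secretory granule protein gene (-0.16), was not called without ZT1 replicate 1, 2 or 3 or ZT13 replicate 1, 2 or 3 (adjusted p up to 0.112), with a log2FC of -0.20 to -0.13 over these analyses. The hormone genes Oxt (-0.47), Avp (-0.28) and Crh (-0.12) had overlapping groups and were not called, and Avp was called without ZT13 replicate 2 (adjusted p = 0.0322). Hcrt and Pmch, the genes of orexin and melanin-concentrating hormone, which promote wakefulness and feeding, each had a log2FC of 0.14 and were not called. Of the 16 genes of the orexin, MCH and histamine systems 3 were called (18.8%). The receptor genes Mchr1 (0.21, adjusted p = 0.0175) and Hcrtr2 (0.21, adjusted p = 0.0346) were higher, and Slc18a2, the vesicular monoamine transporter gene that the midbrain dopamine list also holds, was lower (-0.51, adjusted p = 0.0275). Slc18a2 was at 77.1, 114, 85.3 and 113 CPM at ZT1, highest in replicates 2 and 4, and at 71.3, 64.0, 76.5 and 60.9 CPM at ZT13. Mchr1 lost its call without ZT1 replicate 1 or 3 or ZT13 replicate 4 (adjusted p up to 0.0534), and Hcrtr2 without ZT1 replicate 1 or 2 or ZT13 replicate 2, 3 or 4 (up to 0.1). No gene of these systems was lower without ZT1 replicate 2 or 4 or ZT13 replicate 1, 2 or 4.

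Among channels, the acid-sensing family was without a call. Beside Asic1, Asic2 (0.03, adjusted p = 0.616) and Asic4 (-0.23, adjusted p = 0.114) were tested, no tool of 3 (edgeR, DESeq2 and limma-voom) called any of the 3 genes, 2 had an unadjusted p under 0.05, and Asic3 and Asic5 stayed under the 1 CPM minimum. Of 20 proton-sensing receptors and pH regulators 5 were lower (25.0%, against 4.79% of all genes) and none was higher. They were the lactate and proton transporter genes Slc16a3 (-0.48) and Slc16a1 (-0.18) and the carbonic anhydrase genes Car2 (-0.16), Car4 (-0.21) and Car8 (-0.20). The count of lower genes was 1 without ZT13 replicate 3, 2 without ZT1 replicate 2, ZT1 replicate 4 or ZT13 replicate 1, and 3 without ZT13 replicate 2 or 4, and 1 without either pair of libraries high in neighbouring-tissue markers. Of 46 potassium channel genes 7 were higher and 3 lower (21.7% called, against 11.4% of all genes tested). The higher members with the largest changes were Kcnn2, a small-conductance calcium-activated channel gene (0.40, adjusted p = 6.43e-05), and Kcnj2, an inward rectifier gene (0.30, adjusted p = 0.00604). The count of lower channels was 1 without ZT1 replicate 2, ZT1 replicate 4 or ZT13 replicate 2. Of 31 sodium, calcium and HCN channel genes 1 was called (3.23%), the pacemaker channel gene Hcn4 (0.21), and it was not called without ZT1 replicate 2 or ZT13 replicate 1, 2 or 3. Of 40 GABA and glutamate receptor genes 2 were higher and 3 lower (12.5%), among them Grm3 at -0.35 (adjusted p = 3.72e-04), which was also lower in WT mice. The count of higher receptor genes was 0 without ZT1 replicate 2 or 4 or ZT13 replicate 2 or 3, and 1 without ZT1 replicate 1 or ZT13 replicate 1. Among 17 RGS regulators, which limit G protein signalling, edgeR, DESeq2 and limma-voom made no call and 4 had an unadjusted p under 0.05, and 1 was called without ZT13 replicate 2 or without ZT13 replicate 4.

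Genes of respiration and of the cytosolic ribosome held few calls. Of 54 oxidative phosphorylation genes none was called by edgeR or limma-voom, DESeq2 called 1 and 10 had an unadjusted p under 0.05, with a median of -0.05 and 1 member above 0. Of 54 cytosolic ribosomal protein genes 1 was lower, Rplp0, whose call was lost without ZT1 replicate 2, 3 or 4 or ZT13 replicate 1, 2 or 3 (adjusted p up to 0.116), and the sign of the list's median turned with the scaling. The mitochondrial transcripts mt-Cytb (-0.13), mt-Nd4 (-0.14) and mt-Nd2 (-0.22) were among the 5 most abundant genes called lower. None of the 3 was called without ZT1 replicate 2 or 4 or ZT13 replicate 1, 2 or 3 (adjusted p up to 0.146), and mt-Cytb also not without ZT1 replicate 1. Of 30 genes of cholesterol and fatty acid synthesis 4 were higher and 1 lower (16.7% called), and Mvd, an enzyme gene of the mevalonate pathway, was among the higher members (0.34, adjusted p = 6.82e-04).

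**Figure D5:**
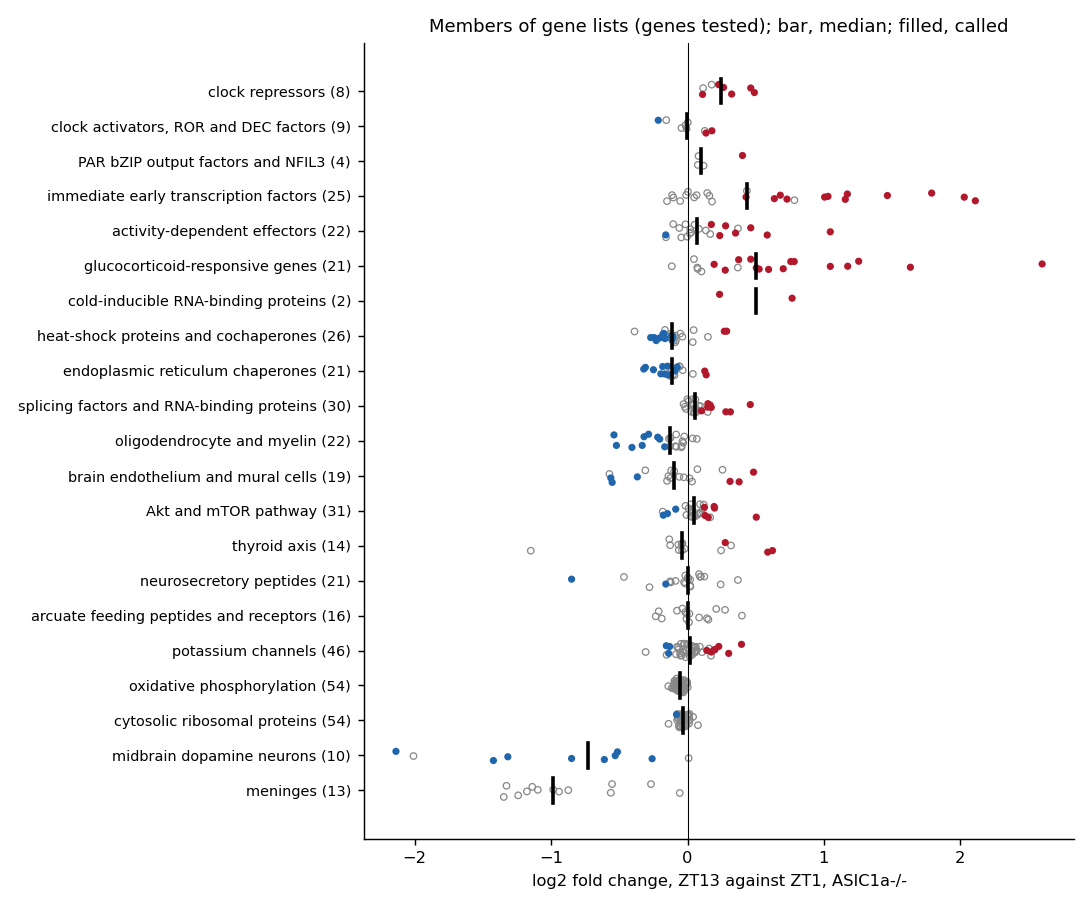
Log2 fold change of ZT13 against ZT1 in ASIC1a-/- mice for the members of 21 gene lists, with the number tested in parentheses, called members filled (red, higher; blue, lower) and the median as a black bar. All 8 clock repressors, 20 of 25 immediate early factors and 20 of 21 glucocorticoid-responsive genes lie to the right of 0, against 2 of 22 oligodendrocyte genes, 3 of 21 endoplasmic reticulum genes, 5 of 26 heat-shock genes and 1 of 10 midbrain dopamine genes.

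Transcript length, a measure of the mix of isoforms that the counts do not use, gave no call in ASIC1a-/- mice. None of 12031 genes tested with limma passed an adjusted p under 0.05 (0%), 819 (6.81%) had an unadjusted p under 0.05, and the smallest adjusted p was 0.206. Without ZT1 replicate 4 there was 1 call, and without ZT13 replicate 4 there were 2. The gene with the smallest p, Gm45799, was at 1020, 1079, 1111 and 1278 bp at ZT1 and at 1582, 1624, 1514 and 1946 bp at ZT13, without overlap. Etnppl, which was higher in CPM, was at 2861 ± 47.6 bp at ZT1 and 2716 ± 35.7 bp at ZT13, and the WT means were 2832 and 2733 bp. Dhx16, an RNA helicase gene, was at 2538 ± 93.7 and 2163 ± 88.8 bp, and Ncf1, a subunit gene of the phagocyte oxidase, at 2722 ± 1.85 and 2359 ± 128 bp, both with an adjusted p of 0.206.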

How the data were processed

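Paired-end RNA-seq was made of whole hypothalamus from 16 mice, of which the 8 ASIC1a-/- libraries are described. The tables hold the expected count, TPM and effective and full transcript length of each gene, which the authors deposited as RSEM output, 1 table per mouse. Per the study's methods and the submitters' processing notes, reads were trimmed with cutadapt 1.8, cleared of ribosomal RNA, aligned with STAR 2.5.3a and assigned to isoforms with RSEM 1.2.31, while HTSeq 0.9.1 is named for gene counts that are not used here. GRCm38 and mm9 are both named as builds. Coordinates come from the GRCm38 annotation (GENCODE vM21), in which 55141 of the 55401 gene identifiers were found.

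Expected counts were rounded, since 4.85% of them were not whole, scaled with TMM and tested with edgeR 4.0.16 (quasi-likelihood, R 4.3.3) in 1 fit of the 4 groups, with Benjamini-Hochberg adjustment over all 15668 genes and a threshold of 0.05. The interaction came from the same fit. Length was tested with limma 3.58.1 on log2 values, at a mean of at least 2 CPM. Values are CPM on TMM-scaled library sizes, given per mouse or as mean ± SD (n = 4). The biological coefficient of variation was 6.06%. P-values measure the spread between mice. On simulated counts with the depth of this contrast and 50 genes changed at each size, 44%, 78% and 98% of genes changed by 0.25, 0.5 and 1 (log2) were recovered. There were 9 false calls among 15668 genes. Genes were drawn independently, without the shared variation of neighbouring-tissue markers. That number of false calls therefore does not carry over to the 1790 calls made here.

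Gene lists, tests and the comparison itself were chosen with earlier results of these data known. Genes are named by a fixed rule (the targeted gene, the 15 largest called changes in each direction, the 10 smallest p in each direction, the 5 most abundant called genes in each direction, the 4 members of lowest p in every list, genes called in the interaction, the 8 smallest p of the length test, genes the study names and genes with an outlying library), and members beyond it, such as Ciart, Cry1, Cry2, Nr1d1, Clock, Nfkbia, Fosl2, Jun, Herpud1, Dnajb1, Cldn5, Kcnj8, Mbp and the peptide hormone genes, were chosen after their values were seen. Some named genes of the rule are given only within counts, and some are not reported here. Alternatives were other scalings, filters, tools (DESeq2 1.42.0, limma-voom), the ASIC1a-/- libraries alone, log2(TPM + 1) and log2(TPM + 0.1), a block for the replicate number and leaving out libraries.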

Additional observations from a re-analysis of the deposited data

Results flagged for a closer look

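For 3 genes the change from ZT1 to ZT13 differed between genotypes by the edgeR interaction test, and in each the increase was larger in ASIC1a-/- mice. The log2 difference between the contrasts was 1.09 for Egr1, 1.02 for Nr4a1 and 0.45 for Ddit4. Egr1 and Nr4a1 are also genes that the study names from these same libraries.

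In 19 of 350 groups of 4 mice, 1 library lay apart from the other 3 by Dixon's criterion, where about 5% are reached by chance. At ZT1 the library apart was replicate 1 for 1700016P03Rik (0.727 CPM, others 0.392 to 0.448), Rbm3 (64.3, others 51.2 to 52.3), Gm19439 (2.91, others 3.9 to 4.06) and Slc2a1 (71.9, others 75.3 to 76). It was replicate 2 for Ep300 (69.9, others 75.9 to 76.8) and Gh (11.5, others 2.97 to 3.31), replicate 3 for Mertk (19.1, others 13 to 14) and Epha2 (2.09, others 1.23 to 1.37), and replicate 4 for Emp2 (34.3, others 30.4 to 30.8). At ZT13 it was replicate 1 for Nr1d2 (150, others 154), replicate 2 for Usp2 (28.2, others 24.3 to 24.9), Arl4d (4.52, others 7.56 to 7.82) and Nlrp5-ps (1.13, others 0.555 to 0.589), and replicate 3 for Asic2 (64.6, others 68 to 68.1). It was replicate 4 for Tsc22d3 (119, others 112 to 113), Stip1 (261, others 240 to 243), Hspa8 (2527, others 2360 to 2388), Slco1a4 (39, others 42.9 to 43.5) and Irs1 (27.2, others 28.1 to 28.2).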

How the results depend on the processing

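Of 147 called genes among the 175 followed through the alternatives, 76 were called in all of them and none changed sign. Of 28 uncalled genes 7 were called in at least 1. The stricter threshold of 0.01 is left out of these counts of calls. Against 1040 higher and 750 lower genes, the ASIC1a-/- libraries alone gave 797 and 457, an adjusted p under 0.01 gave 704 (447 and 257), log2(TPM + 0.1) gave 973 (768 and 205), and log2(TPM + 1) gave 974 (766 and 208). Without ZT1 replicates 2 and 4, chosen after seeing the data, there were 856 (578 and 278), and without ZT1 replicate 4 and ZT13 replicate 2, 1093 (652 and 441). Leaving out 1 library gave 1157 to 1705 genes, 716 to 1003 of them higher and 441 to 702 lower. DESeq2 gave 1921 and no filter 1503.

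The interaction count of 3 (3 higher, 0 lower) became 13 with DESeq2 (10 and 3), 17 with no filter (11 and 6), and 6 without ZT1 replicate 4 and ZT13 replicate 2 (5 and 1), and leaving out 1 library gave 3 to 7, with 3 to 7 higher and 0 to 1 lower. The length test called 1 gene in the ASIC1a-/- libraries alone, and 0 to 2 when 1 library was left out. List members called numbered 93 at an adjusted p under 0.01 and 96 without ZT1 replicates 2 and 4. The cause was not tested for these shifts, beyond the fewer samples or the stricter threshold by construction.

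Replicate numbers were treated as names. The correlation of deviations between same-numbered libraries was -0.324 to 0.039 in ASIC1a-/- mice and -0.0748 to 0.0675 in WT mice. With 4 mice a group such values cannot exclude a shared collection or preparation. With a replicate block in the ASIC1a-/- libraries alone 648 genes were called (433 higher and 215 lower), with 93 list members, and with a replicate block over 16 libraries 1634 (962 and 672), and 5 in the interaction (3 higher and 2 lower). The best correlation was not with the same number for any of the 4 ASIC1a-/- replicates, though replicate 3 was close (0.0213 against 0.0226). In WT mice it was with the same number for replicates 1 (0.0668 against 0.012) and 2 (0.0675 against 0.0302), and not for replicates 3 and 4.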
